A study of Mus musculus with 9 samples.

Results

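The upper layer projection neuron genes examined here were *Cux1*, *Cux2*, *Pou3f1*, *Pou3f2*, *Pou3f3*, *Mef2c*, *Rorb*, *Lhx2* and *Unc5d*, which are 9 of the 14670 genes in a table of mRNA levels of the embryonic mouse cortex. They were picked by gene symbol, and each of the 9 symbols occurred once in the table. Cerebral cortex was dissected at embryonic day 16.5 (E16.5) and its RNA sequenced in 3 control, 3 *Fzd3* -/- mutant and 3 *Celsr3* -/- mutant libraries. The mutants were bred on a mixed background of C57Bl/6 and CD1, and the *Fzd3* mutant allele lacks exon 3. The labels give the controls as +/+, whereas the methods allow heterozygous littermates among the controls. The sources name 3 samples of each genotype and do not say whether each was a single embryo, so that P values measure the spread between these samples. The comparisons ask whether loss of *Fzd3* or of *Celsr3*, which encode membrane proteins of the planar cell polarity family, goes with a different level of these genes.

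Projection neurons of the cortex are born from radial glia, directly or through intermediate progenitors, and settle so that later-born neurons lie above earlier-born ones. Neurons of the upper layers are the late-born ones, and they mostly send axons to other cortical areas, in the same hemisphere or across the corpus callosum. The stage sampled lies within the period in which they are produced, so that whole cortex holds progenitors, migrating neurons and settled neurons at the same time. In such bulk tissue, fewer cells of a type and less RNA per cell cannot be told apart.

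Levels were given as CPM, the reads of a gene scaled to a size set for its library. The listed values summed to 990141 in *Fzd3* mutant library 2 and up to 1012200 in control library 2. In control libraries 1 and 2 and *Celsr3* mutant library 1 the sum exceeded what division by the total reads allows. The values thus carry a further scaling between libraries, and how it was done is not given. Factors aligning the median gene ratio between libraries were 0.999 to 1.003. In each library 100% of the values up to 1000 steps were, within 0.1 step, whole multiples of a single smallest step, which on that reading corresponds to 39857305 to 69600589 reads on listed genes per library. This depth is inferred from the steps, did not pass a check of the values as read counts, and entered no test. The lowest value of any of the 9 genes in any library was 30.7 CPM. Differences were tested with limma on log2(CPM + 0.5) in one fit of the 9 libraries. P values were adjusted over all 14670 genes (Benjamini-Hochberg) and called under 0.05. Every log2 difference below is on the log2(CPM + 0.5) scale.

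The mutated genes were examined first. *Celsr3* mRNA was at 196, 243 and 214 CPM in control libraries 1, 2 and 3 and at 122, 139 and 118 CPM in *Celsr3* mutant libraries 1, 2 and 4, with no overlap. *Fzd3* mRNA was at 58.0, 67.7 and 46.9 CPM in controls and at 46.5, 39.8 and 59.6 CPM in *Fzd3* mutant libraries 1, 2 and 3. These ranges overlapped (log2 difference -0.24, limma adjusted P = 0.24). A single value for the whole gene does not show whether the deleted exon is missing, so *Fzd3* mRNA is no check of the *Fzd3* mutant labels. The cortical identity of the tissue was visible in *Neurod6*, a transcription factor of cortical projection neurons, at 903 ± 28.9 CPM (s.d., n = 3) in controls.

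*Mef2c* encodes a MADS box transcription factor that acts in neuronal differentiation, cortical layering and synapse number, and it is also made in endothelial cells, microglia and some interneurons. The gene, listed as XLOC_008151, lies on the plus strand of chromosome 13 of GRCm38 from 83504034 to 83667080. Its mRNA was at 388, 346 and 374 CPM in control libraries 1, 2 and 3. It was at 627, 598 and 571 CPM in *Fzd3* mutant libraries 1, 2 and 3. In *Celsr3* mutant libraries 1, 2 and 4 it was at 402, 351 and 330.4 CPM. All 3 *Fzd3* mutant libraries were above all 6 others, whereas *Celsr3* mutants and controls overlapped. *Mef2c* rose in *Fzd3* mutants to 1.62 times the control level, a log2 difference of 0.70 (standard error 0.0698, limma adjusted P = 6.45e-05). The 95% interval of that difference ran from 0.54 to 0.85. Among all genes, 93.9% had a smaller difference in this comparison, in either direction, and 152 had a smaller P.

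*Mef2c* has 3 annotated start sites in RefSeq (GRCm38.p6), and promoter windows of 300 bases, 250 before and 50 after the start, were found for 7 of the 9 genes, 12 windows in all. *Pou3f1* and *Unc5d* had no entry. Each window was searched on both strands for letters bound by the protein families of the members: ATGCAAAT (the octamer of POU proteins), TAATTA (LIM homeodomain proteins), AGGTCA (ROR receptors), ATCGAT (CUX proteins) and the MEF2 motif. Of the 32851 RefSeq windows searched, which do not cover every chromosome, 1.74% held the octamer, 5.29% TAATTA, 16.3% AGGTCA, 0.925% ATCGAT and 3.19% the MEF2 motif. The windows of *Mef2c* starts 2 and 3 are shown because *Mef2c* had the largest difference of the 9 genes in *Fzd3* mutants and its windows held 4 of the 5 matches found. Capitals mark the matches, with AGGTCA read as TGACCT on the opposite strand, and no match overlaps another.
Mef2c start 2, chr13:83523406-83523705, plus strand: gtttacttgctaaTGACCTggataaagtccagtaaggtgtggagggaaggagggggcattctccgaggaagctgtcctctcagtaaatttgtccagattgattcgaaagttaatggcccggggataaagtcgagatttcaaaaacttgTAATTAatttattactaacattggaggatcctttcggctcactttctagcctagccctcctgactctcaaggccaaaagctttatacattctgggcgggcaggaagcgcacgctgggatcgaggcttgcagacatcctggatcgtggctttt
Mef2c start 3, chr13:83573357-83573656, plus strand: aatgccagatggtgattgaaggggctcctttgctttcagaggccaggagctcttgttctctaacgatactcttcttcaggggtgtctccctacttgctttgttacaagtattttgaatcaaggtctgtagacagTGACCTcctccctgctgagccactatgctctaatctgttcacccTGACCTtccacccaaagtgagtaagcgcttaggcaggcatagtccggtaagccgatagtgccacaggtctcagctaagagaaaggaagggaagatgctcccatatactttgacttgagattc
In the window of start 2 AGGTCA begins 237 bases and TAATTA 102 bases before the start, and in that of start 3 AGGTCA begins 116 and 72 bases before it. The remaining match was ATCGAT in the window of *Cux2* start 2. The octamer and the MEF2 motif were in 0 of the 12 windows. The 3 *Mef2c* windows held 35.7%, 47.0% and 48.3% G and C, below the median of 52.7% over all windows searched, and the 2 windows of *Lhx2* held 74.7% and 69.3%. A match is a description of the letters only, and the table of mRNA levels does not say which start was used.

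**Figure D1:**
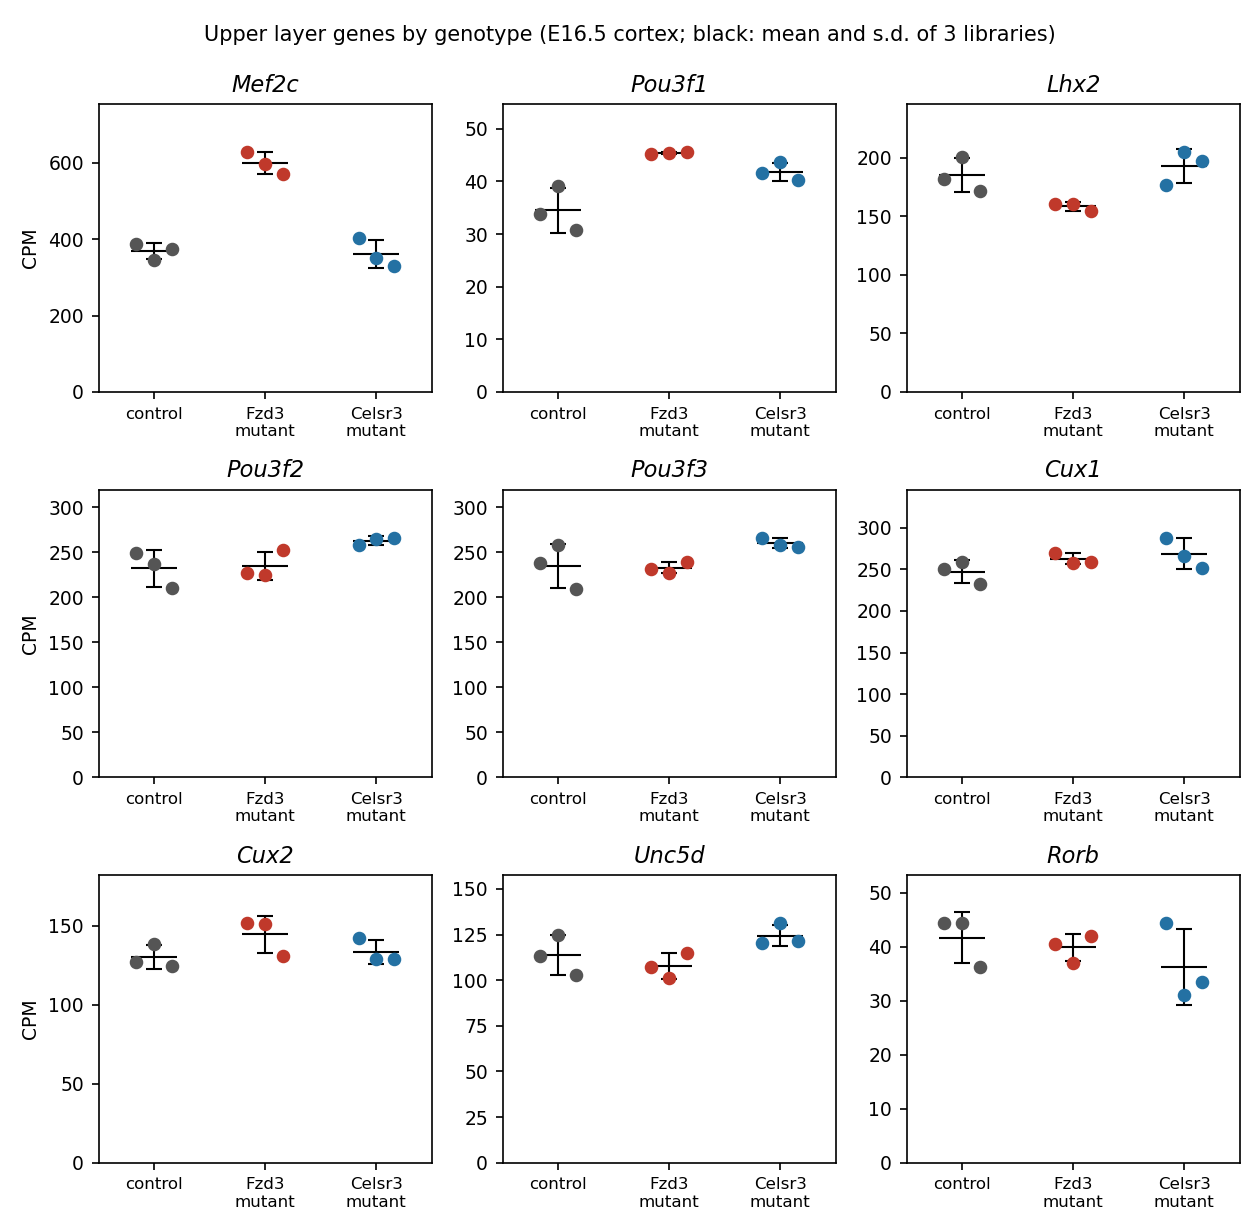
CPM of the 9 upper layer genes in each library (points) of control, *Fzd3* mutant and *Celsr3* mutant cortex, with the mean and s.d. of 3 libraries in black and each vertical axis starting at 0. *Mef2c* lies between 571 and 627 CPM in *Fzd3* mutants and at most at 402 CPM elsewhere, and *Cux1*, *Cux2* and *Rorb* overlap between all 3 genotypes.

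The POU genes *Pou3f1*, *Pou3f2* and *Pou3f3* encode closely related transcription factors. *Pou3f2* (Brn2) and *Pou3f3* (Brn1) share a role in the production and migration of upper layer neurons, and *Pou3f1* (Oct6 or SCIP) is also known from myelinating Schwann cells. *Pou3f1* (XLOC_022354, chromosome 4, 124656807 to 124660655, plus strand) was at 33.7, 39.1 and 30.7 CPM in controls 1, 2 and 3. Its level was 45.3, 45.3 and 45.5 CPM in *Fzd3* mutants 1, 2 and 3, and 41.7, 43.7 and 40.2 CPM in *Celsr3* mutants 1, 2 and 4. The 3 genotypes did not overlap, with *Fzd3* mutants highest and controls lowest. *Pou3f1* rose in *Fzd3* mutants to 1.32 times the control level (log2 difference 0.40, standard error 0.0767, limma adjusted P = 0.00308). Its difference of 0.28 in *Celsr3* mutants did not pass (limma adjusted P = 0.419). Without control library 2, the highest control, it was 0.37 and passed (limma adjusted P = 0.0399), while over the 18 alternative fits the adjusted P ranged from 0.0399 to 0.96. Between the mutants *Pou3f1* differed by 0.12 (limma adjusted P = 0.282), so a difference between the effects of the mutations was not shown for it.

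*Pou3f2* (XLOC_022950, chromosome 4, 22482780 to 22488366, minus strand) was at 249, 237 and 209.6 CPM in controls, at 227, 224 and 252 CPM in *Fzd3* mutants and at 257, 265 and 266 CPM in *Celsr3* mutants. The *Celsr3* mutant libraries were above all others, and controls overlapped with *Fzd3* mutants. *Pou3f3* (XLOC_000164, chromosome 1, 42695768 to 42703176, plus strand) was at 238, 258 and 209 CPM in controls, at 231, 227 and 239.7 CPM in *Fzd3* mutants and at 266, 258 and 256 CPM in *Celsr3* mutants. Here the *Celsr3* mutants overlapped with the controls through control library 2 and lay above the *Fzd3* mutants. Neither gene passed the threshold in a comparison of a mutant with controls. In *Fzd3* mutants *Pou3f2* was at a log2 difference of 0.016 (95% interval -0.12 to 0.16) and *Pou3f3* at -0.0088 (-0.15 to 0.13). In *Celsr3* mutants the values were 0.18 (0.042 to 0.32, limma adjusted P = 0.756) and 0.15 (0.011 to 0.29, limma adjusted P = 0.882). The 3 POU genes were thus not alike in *Fzd3* mutants. The ratio of *Pou3f1* to *Pou3f3* CPM was 0.147 ± 0.00485 (controls), 0.195 ± 0.00466 (*Fzd3*) and 0.161 ± 0.00697 (*Celsr3*; s.d., n = 3 each), without overlap between genotypes. For *Pou3f1* to *Pou3f2* the *Fzd3* mutants, at 0.181 to 0.202, were also above the others, but controls (0.135 to 0.165) and *Celsr3* mutants (0.151 to 0.165) overlapped. The ratio of *Pou3f2* to *Pou3f3* overlapped throughout, with the lowest library at 0.919, 0.982 and 0.967 in the same order.

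*Lhx2* encodes a LIM homeodomain transcription factor that specifies cortical identity in progenitors and is later made in upper layer neurons. It is listed as XLOC_016742 and lies on chromosome 2 from 38339281 to 38369733, on the plus strand. *Lhx2* was at 182, 201 and 172 CPM in controls 1, 2 and 3, at 161, 161 and 154 CPM in *Fzd3* mutants 1, 2 and 3, and at 177, 205 and 197 CPM in *Celsr3* mutants 1, 2 and 4. All 3 *Fzd3* mutant libraries were below the 6 others, and *Celsr3* mutants overlapped with controls. *Lhx2* fell in *Fzd3* mutants to 0.86 of the control level (log2 difference -0.22, standard error 0.0638, limma adjusted P = 0.0247). This call was lost in 7 of 18 alternative fits, and the adjusted P over the 18 ranged from 0.0117 to 0.0933. It was lost without control library 1 (limma adjusted P = 0.0531) or 2 (0.0933), without *Fzd3* mutant library 1 (0.0578), 2 (0.0543) or 3 (0.0643), without a trend in the variance (0.0622) and with ordinary variances per gene (0.0877). In *Celsr3* mutants the log2 difference of *Lhx2* was 0.062 (limma adjusted P = 1).

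*Cux1* and *Cux2* encode homeodomain proteins of the cut family that regulate dendrite branching and synapses of upper layer neurons. *Cux1* (XLOC_025986, chromosome 5, 136248135 to 136567490, minus strand) was at 251, 259 and 232 CPM in controls, at 270.1, 258 and 259 CPM in *Fzd3* mutants and at 288, 266 and 251 CPM in *Celsr3* mutants. The 3 genotypes overlapped, and the log2 differences from controls were 0.088 in *Fzd3* mutants (limma adjusted P = 0.261) and 0.12 in *Celsr3* mutants (limma adjusted P = 0.936). *Cux2* (XLOC_025874, chromosome 5, 121856366 to 122050102, minus strand) was at 127, 139 and 124 CPM in controls, at 152, 151 and 131 CPM in *Fzd3* mutants and at 142, 129 and 129 CPM in *Celsr3* mutants. *Fzd3* mutant library 3 lay within the control range and the other *Fzd3* mutant libraries above it. The log2 difference of *Cux2* in *Fzd3* mutants was 0.15 (limma adjusted P = 0.117), and without *Fzd3* mutant library 3 it was 0.22 and passed the threshold (limma adjusted P = 0.0214), with adjusted P between 0.0214 and 0.324 over the 18 alternatives. In *Celsr3* mutants it was 0.035 (limma adjusted P = 1). The ratio of *Cux2* to *Cux1* CPM overlapped between the genotypes, with means ± s.d. (n = 3) of 0.527 ± 0.0164 (controls), 0.55 ± 0.0416 (*Fzd3*) and 0.497 ± 0.0157 (*Celsr3*).

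*Rorb* encodes an orphan nuclear receptor that marks neurons of the granular layer, the main target of thalamic axons. *Rorb* (XLOC_016000, chromosome 19, 18930605 to 19111196, minus strand) was at 44.4, 44.4 and 36.2 CPM in controls, at 40.6, 37.1 and 42.0 CPM in *Fzd3* mutants and at 44.4, 31.0 and 33.5 CPM in *Celsr3* mutants. *Celsr3* mutant library 1 reached the level of the highest controls while libraries 2 and 4 lay below all controls, and the s.d. of *Rorb* in these mutants was 19.6% of its mean, the largest such share among the 9 genes in any genotype. The log2 differences from controls were -0.058 in *Fzd3* mutants (limma adjusted P = 0.756) and -0.21 in *Celsr3* mutants (limma adjusted P = 0.984).

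*Unc5d* encodes a receptor for netrins and FLRT proteins that is strong in newborn upper layer neurons on their way out of the subventricular zone. *Unc5d* (XLOC_032243, chromosome 8, 28646717 to 29219636, minus strand) was at 113, 125 and 103 CPM in controls, at 107, 101 and 115 CPM in *Fzd3* mutants and at 121, 131 and 121 CPM in *Celsr3* mutants. Both mutants overlapped with the controls, and only the mutants lay apart from each other, with *Celsr3* mutants above *Fzd3* mutants. The log2 differences from controls were -0.074 in *Fzd3* mutants (limma adjusted P = 0.464) and 0.13 in *Celsr3* mutants (limma adjusted P = 0.959). *Svet1*, a transcript used as a marker of the subventricular zone, is annotated on the same strand inside *Unc5d* and touches none of its exons.

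In *Fzd3* mutants against controls 3 of the 9 genes passed the threshold, against 29.8% of all tested genes. *Mef2c* and *Pou3f1* were higher, 2 of 9 genes where 15.0% of all genes were higher, and *Lhx2* was lower, 1 of 9 where 14.8% were lower. The same 3 genes were the ones whose libraries did not overlap with controls, and 43.8% of all genes had no overlap. The share of called members is thus close to that of the whole table, and what sets the 9 genes apart from each other is the size and direction of single genes. The median log2 difference of the 9 genes was 0.016, against -0.00056 over all genes.

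In *Celsr3* mutants against controls, 0 of the 9 genes passed the threshold with limma, against 0.307% of all tested genes (45 of 14670). At an unadjusted limma P under 0.05 there were 3 of the 9, the POU genes *Pou3f1*, *Pou3f2* and *Pou3f3*, and 800 of all genes. *Pou3f1* and *Pou3f2* were the 2 genes whose *Celsr3* mutant libraries did not overlap with controls, where 10.4% of all genes had no overlap. The median log2 difference of the 9 genes was 0.12, against -0.0022 over all genes. Both comparisons use the same controls, so the mutants' values are not independent of each other.

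**Figure D2:**
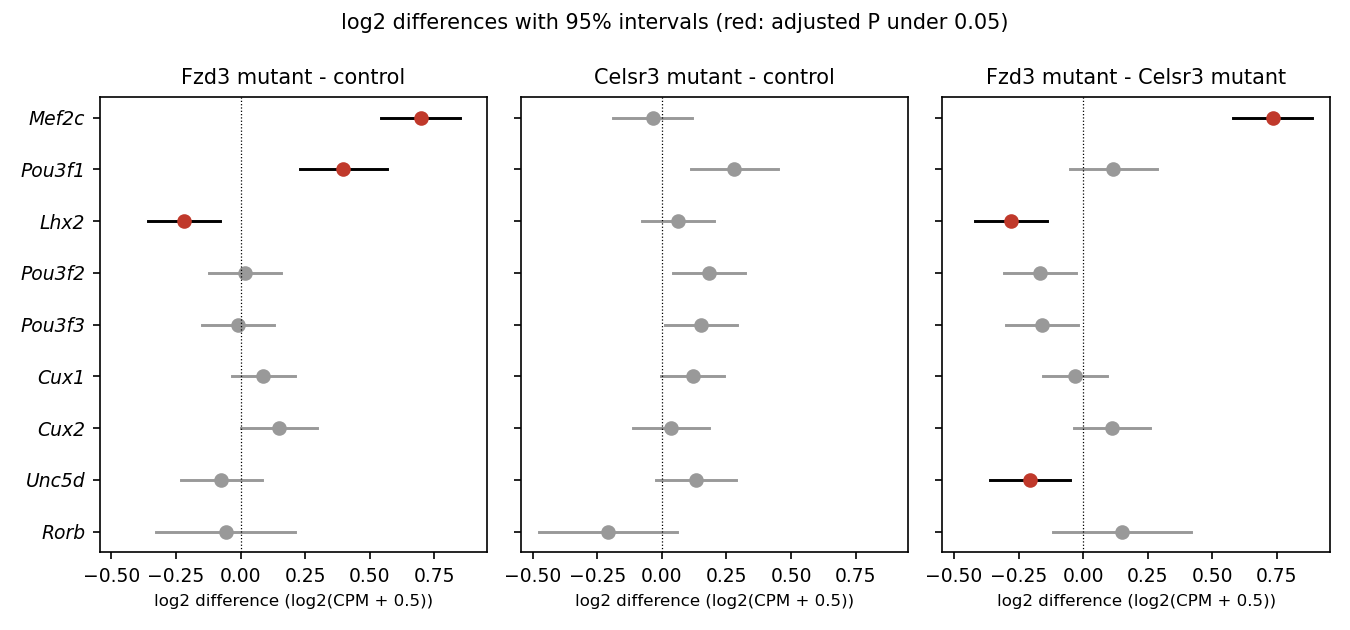
Log2 difference of each gene (points) with its 95% interval (lines) in 3 comparisons from one limma fit, with an adjusted P under 0.05 in red. *Mef2c* is at 0.70 and 0.73 in the comparisons that involve *Fzd3* mutants and at -0.036 between *Celsr3* mutants and controls.

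Compared directly, the mutants differed in 3 of the 9 genes, against 29.6% of all tested genes, a share near that background. With a replicate block 2 of the 9 and 2101 of all genes were called, against 4346 without it. That block also takes out *Celsr3* mutant library 4, the only library with its number. Of the 9, 1 was higher in *Fzd3* mutants (15.3% of all genes) and 2 were lower (14.3%). *Mef2c* was higher in *Fzd3* than in *Celsr3* mutants (log2 difference 0.73, standard error 0.0698, limma adjusted P = 5.92e-05), a call kept in 18 of 18 alternative fits. *Lhx2* was lower (-0.28, standard error 0.0638, limma adjusted P = 0.00747), also in 18 of 18. *Unc5d* was lower as well (-0.21, standard error 0.0706, limma adjusted P = 0.0469), but this call was lost in 9 of 18 alternative fits, with adjusted P from 0.0234 to 0.164 over the 18. For *Unc5d* it was lost without *Celsr3* mutant library 1 (0.0627), 2 (0.158) or 4 (0.0775), without control library 1 (0.0642), and without *Fzd3* mutant library 1 (0.114) or 2 (0.164). The other 3 fits were those without a trend (0.0949), with ordinary variances (0.132) and with a replicate block (0.164). *Pou3f2* and *Pou3f3*, at -0.17 and -0.16 (limma adjusted P = 0.0715 and 0.0803), did not pass the threshold, although the libraries of the mutants did not overlap in either gene. They passed it together in the fit of only the 6 libraries compared (limma adjusted P = 0.0323 and 0.013) and without control library 3 (0.027 and 0.017), *Pou3f3* also without control library 2 (0.0334) and *Pou3f2* without *Fzd3* mutant library 3 (0.0268). Without that library *Cux2* passed as well (log2 difference 0.18, limma adjusted P = 0.0433), and *Rorb* passed without *Celsr3* mutant library 1 (0.30, limma adjusted P = 0.0407). The adjusted P over the 18 alternatives ranged from 0.0268 to 0.292 for *Pou3f2*, from 0.013 to 0.271 for *Pou3f3*, from 0.0433 to 0.513 for *Cux2* and from 0.0407 to 0.82 for *Rorb*. Libraries without overlap between the mutants were found for 6 of the 9 genes, and for 44.9% of all genes.

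Levels of the 9 genes were compared with each other per kb of annotated exon. In controls *Lhx2* and *Pou3f2* were highest, at 42.1 ± 3.31 and 41.5 ± 3.64 CPM per kb (s.d., n = 3), and overlapped. *Pou3f3* at 31.7 ± 3.31 and *Mef2c* at 23.5 ± 1.36 CPM per kb followed, each apart from its neighbours. *Cux2*, *Unc5d* and *Cux1* overlapped at 12.9 ± 0.74, 12.3 ± 1.18 and 12.3 ± 0.693 CPM per kb, above *Pou3f1* at 8.97 ± 1.11 and *Rorb* at 3.76 ± 0.426. *Mef2c* moved from rank 4 in controls to rank 2 in *Fzd3* mutants, at 38.1 ± 1.8 CPM per kb, where it overlapped with *Lhx2* at 36.1 ± 0.88 and lay below *Pou3f2* at 41.9 ± 2.74. In *Celsr3* mutants *Mef2c* kept rank 4, at 23.0 ± 2.34 CPM per kb, between *Pou3f3* and *Unc5d*. *Rorb* was the lowest in all 3 genotypes. This order depends on the length used. The exons of *Mef2c* together span 15.7 kb and its longest annotated transcript 6.28 kb. With the longest transcript *Mef2c* ranked 2 in controls and 1 in *Fzd3* mutants. On that length control *Lhx2* was at 65.1 CPM per kb, against 41.5 for *Pou3f2*. *Cux1*, *Cux2* and *Unc5d* were then at 19.2, 14.8 and 12.3 CPM per kb in controls.

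**Figure D3:**
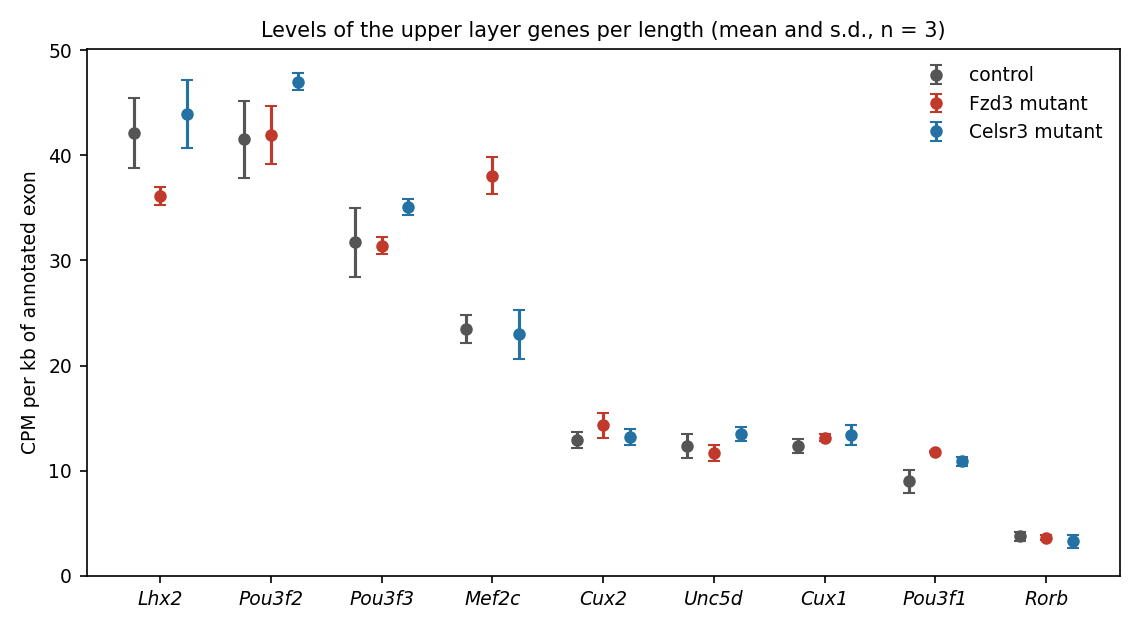
Level of each gene in CPM per kb of annotated exon (vertical axis) by genotype, as mean (points) and s.d. (bars) of 3 libraries. *Lhx2* and *Pou3f2* are highest in controls, at 42.1 and 41.5 CPM per kb, and *Mef2c* stands at 38.1 in *Fzd3* mutants against 23.5 in controls.

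Summed over the 9 genes, control libraries held 1588 ± 84.6 CPM, *Fzd3* mutant libraries 1824 ± 31.9 CPM and *Celsr3* mutant libraries 1681 ± 57.6 CPM (s.d., n = 3 each). Without *Mef2c* the sums were 1219 ± 93.8, 1226 ± 18.0 and 1320.1 ± 23.2 CPM, so that the higher sum in *Fzd3* mutants was carried by *Mef2c*. *Mef2c* made up 21.0% to 25.1% of the summed CPM in control libraries, 31.5% to 33.7% in *Fzd3* mutant libraries and 20.3% to 23.1% in *Celsr3* mutant libraries.

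The pattern over the 9 libraries was compared between genes by the root mean square difference of log2(CPM + 0.5), each gene centred on its own mean. Among the 9 genes *Pou3f3* and *Unc5d* were nearest to each other, at 0.0555, and *Mef2c* was the farthest from each of the other 8, at up to 0.479 from *Lhx2*. The measure grows with the size of a gene's own changes as well as with a difference in pattern. Around its own mean *Mef2c* had a root mean square of 0.348, and the other 8 had 0.0807 (*Cux1*) to 0.188 (*Pou3f1*). The gene outside the group nearest to *Mef2c* was *Lrrn3* (0.0605), to *Pou3f1* *Pcdhb14* (0.052), and to *Lhx2* *Elmsan1* (0.043). *Mrpl47* was the nearest to both *Pou3f2* (0.0365) and *Pou3f3* (0.0412). The nearest to *Cux1* was *Klhl29* (0.0374), to *Cux2* *Myl6b* (0.0334), to *Rorb* *Dgkh* (0.0793) and to *Unc5d* *Kif26a* (0.0317).

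Other genes of upper layer and callosal neurons were examined as a list, of which 22 of 25 were in the table. In *Fzd3* mutants 12 of the 22 were higher and 3 lower than in controls, with a median log2 difference of 0.25, against 0.016 for the 9 genes. Over all genes 15.0% were higher and 14.8% lower. *Dkk3*, which encodes a secreted protein, rose from 12.9 ± 0.931 to 26.7 ± 0.562 CPM (s.d., n = 3; log2 difference 1.03, limma adjusted P = 5.56e-06). *Rasgrf2*, a Ras exchange factor, rose from 2.21 ± 0.212 to 7.40 ± 1.54 CPM (1.53, limma adjusted P = 4.32e-05). In *Celsr3* mutants 0 of the 22 passed the threshold and 5 had an unadjusted limma P under 0.05, with a median of 0.056. That P was reached by 800 of all 14670 genes. Between the mutants 11 of the 22 were higher and 1 lower in *Fzd3* mutants, where 15.3% of all genes were higher and 14.3% lower.

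Family members and partners of the 9 genes formed another list, of which 17 of 18 were in the table. In *Fzd3* mutants 4 were higher and 4 lower, with a median log2 difference of 0.062. Over all genes 15.0% were higher and 14.8% lower. *Unc5c*, a netrin receptor related to *Unc5d*, rose from 15.5 ± 1.56 to 31.2 ± 3.99 CPM (log2 difference 0.99, limma adjusted P = 0.000343), whereas *Unc5d* did not pass. *Ldb1*, the cofactor that LIM homeodomain proteins such as *Lhx2* bind, fell from 245 ± 9.04 to 207 ± 0.554 CPM (-0.24, limma adjusted P = 0.00087). *Flrt3*, which encodes a ligand of Unc5 receptors, fell from 66.0 ± 8.51 to 49.6 ± 1.81 CPM (-0.40, limma adjusted P = 0.00388). In *Celsr3* mutants 0 of the 17 passed and 4 had an unadjusted limma P under 0.05, as had 800 of all 14670 genes. Between the mutants 7 were higher and 2 lower in *Fzd3* mutants, where 15.3% of all genes were higher and 14.3% lower.

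Marker genes of other cells that make *Lhx2* or *Mef2c* were examined as lists. In *Fzd3* mutants 14.8% of all genes fell and 15.0% rose. Beside the lower *Lhx2*, 7 of 10 radial glia genes fell and 0 rose in *Fzd3* mutants, with a median log2 difference of -0.52. Their summed level was 1393, 1449 and 1403 CPM in controls, 1071, 1132 and 1013 CPM in *Fzd3* mutants and 1264, 1299.98 and 1382 CPM in *Celsr3* mutants. *Vim* was the most abundant in controls and *Celsr3* mutants, and *Fabp7* in *Fzd3* mutants. *Vim*, *Pax6* and *Nes* had the smallest P, at -0.62, -0.70 and -0.67 (limma adjusted P = 8.14e-05, 0.00012 and 0.000325). Of 9 intermediate progenitor genes looked for 8 were in the table. All 8 fell (median -0.71), with *Neurog2*, *Btg2* and *Nhlh1* at -0.86, -0.76 and -1.50. They summed to 395, 418 and 360.2 CPM in controls, 220.2, 244 and 269 CPM in *Fzd3* mutants and 377, 425 and 442 CPM in *Celsr3* mutants, led by *Eomes*. In *Celsr3* mutants limma called 0 genes of either list, with 2 radial glia genes and 1 intermediate progenitor gene at an unadjusted P under 0.05. That P was reached by 800 of all 14670 genes. No gene of these lists was at 0 in any library. The log2 difference of *Lhx2* was smaller than either median, and the part of these cells in it was not tested.

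Beside the higher *Mef2c*, 3 of 9 endothelial genes and 5 of 10 microglial genes rose in *Fzd3* mutants and 0 of either list fell. Over all genes 15.0% rose and 14.8% fell in this comparison. The endothelial genes, led by *Kdr*, summed to 116, 118 and 119.9 CPM in controls, 171, 161 and 151 CPM in *Fzd3* mutants and 127, 112 and 166 CPM in *Celsr3* mutants. The microglial genes, led by *Csf1r*, summed to 44.9, 52.1 and 51.4 CPM in controls, 81.0, 75.9 and 56.7 CPM in *Fzd3* mutants and 51.2, 55.1 and 64.6 CPM in *Celsr3* mutants. *Flt1*, *Kdr* and *Cldn5* were at log2 differences of 0.85, 0.58 and 0.53, and *Trem2*, *Csf1r* and *Fcrls* at 1.00, 0.63 and 0.52. Of 11 interneuron genes, led by *Dlx1*, 1 rose, *Npy* (1.94, limma adjusted P = 2.46e-06), with *Calb2* and *Gad1* not past the threshold at 0.45 and 0.27. They summed to 294, 301 and 333 CPM in control libraries, 403, 379.7 and 324 CPM in *Fzd3* mutant libraries and 307, 263 and 246 CPM in *Celsr3* mutant libraries. The mean sum was 309 CPM in controls and 369 CPM in *Fzd3* mutants, where *Npy* alone went from 17.3 to 68.2 CPM. The median log2 difference of the 11 genes in *Fzd3* mutants was -0.015. No gene of these 3 lists was at 0 in any library, and their part in the *Mef2c* difference was not tested.

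Genes of deep layer and of all neurons gave a further comparison for the 9. Over all genes 14.8% fell and 15.0% rose in *Fzd3* mutants. Of the 14 deep layer genes in the table, 7 fell and 1 rose in *Fzd3* mutants, with a median log2 difference of -0.27 and *Nfib* the most abundant. *Bcl11b* and *Fezf2*, which specify subcerebral projection neurons, fell by 0.46 and by 0.44 on the log2 scale (limma adjusted P = 0.000351 and 0.000552), and *Crim1* rose by 0.47. Of 10 pan-neuronal genes looked for 9 were in the table. Of these 4 rose and 2 fell, with *Nefm* at 0.70, *Gap43* at 0.51 and *Neurod6* at -0.22.

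**Figure D4:**
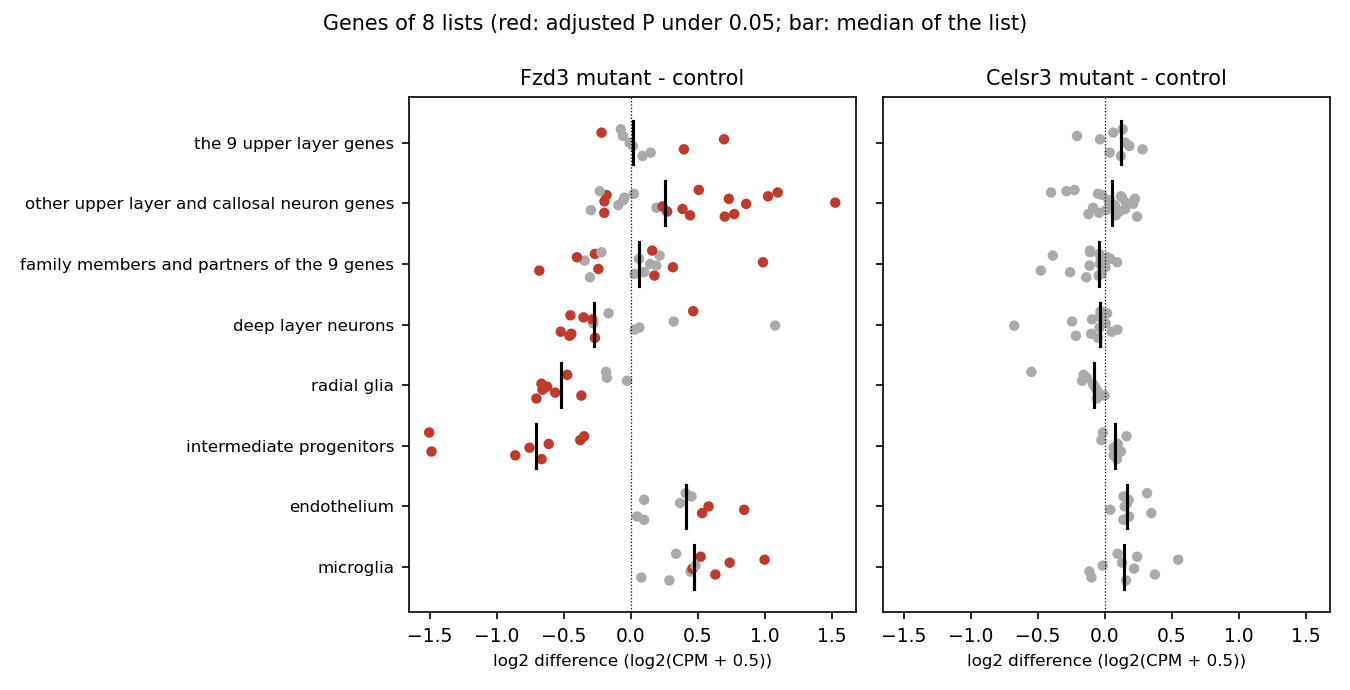
Log2 difference of single genes (points) in 8 lists for *Fzd3* mutants (left) and *Celsr3* mutants (right) against controls, with an adjusted P under 0.05 in red and the median of each list as a bar. In *Fzd3* mutants the medians are 0.016 for the 9 genes, 0.25 for other upper layer genes, -0.27 for deep layer genes and -0.71 for intermediate progenitor genes, and no point is red in *Celsr3* mutants.

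Some of the values may hold reads of other transcripts. The annotation places 13 other genes over 6 of the 9, none of which is listed in the table. Antisense genes lie over an exon of *Cux1*, *Cux2*, *Pou3f1* and *Lhx2*, and a gene on the same strand overlaps *Pou3f3*. These overlaps were taken over the whole span of the other gene, introns included. Whether exons of both genes overlap was not checked. For any stretch shared with the partner of *Pou3f3*, strand does not separate the reads. For the antisense genes the use of strand is not given in the sources used here, so reads of any shared stretch cannot be told apart.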

How the data were processed

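The authors deposited 1 table of CPM values per gene, made by a sequencing company. The submitters' processing notes name GRCm38 and GRCh37 and the tools FastQC, TopHat, Bowtie, TopHat2, Cufflinks 2.1.1 and edgeR 2.12, without roles. The 9 genes and the gene lists were chosen with earlier results of these data known. Counts for a list cover only its genes found in the table. All 9 columns were used; replicate numbers run from 1 to 3, with 4 in place of 3 for *Celsr3* mutants. The labels name Trizol for RNA extraction and the methods an RNeasy kit.

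CPM values are not counts, so no count model was used. The fit used limma 3.58.1 under R 4.3.3 (lmFit, contrasts.fit, eBayes, trended variance) on log2(CPM + 0.5). The filter, a mean CPM of 0.5 or more, removed 0 genes. Tests were two-sided with Benjamini-Hochberg adjustment.

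Tables and plots were made with Python 3.11.15, numpy 2.4.6, pandas 2.3.3 and matplotlib 3.10.9. Exon lengths are the union of exons in GENCODE M21 (GRCm38), which need not be the authors' annotation. Promoter windows are from RefSeq (GRCm38.p6). Genes named besides the 9 were *Fzd3*, *Celsr3*, up to 3 of each list, from those with the smallest P in *Fzd3* mutants, the most abundant gene of some lists, annotated *Svet1* and the nearest gene to each of the 9. Alternatives covered the pseudocount, the filter, the scaling, the variance model, a block for the replicate number, a fit of only the 6 libraries compared and each library left out.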

Additional observations from a re-analysis of the deposited data

Results flagged for a closer look

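The effects of the mutations, each against the same controls, differed for 3 of the 9 genes in the direct test between the mutants, a share near the 29.6% of all tested genes called there. With a replicate block 2 of the 9 and 2101 of all 14670 genes were called, against 4346 without it. *Mef2c* was at a log2 difference of 0.70 in *Fzd3* mutants and -0.036 in *Celsr3* mutants, a difference of 0.73 (limma adjusted P = 5.92e-05), with all 3 *Fzd3* mutant libraries above all 3 *Celsr3* mutant libraries. *Lhx2* was at -0.22 and 0.062, a difference of -0.28 (limma adjusted P = 0.00747), with no overlap between the mutants. *Unc5d* was at -0.074 and 0.13, a difference of -0.21 (limma adjusted P = 0.0469) that passed in 9 of 18 alternative fits.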

How the results depend on the processing

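Alternatives numbered 18, of which 9 left out 1 library each. The filter removed 0 genes, so that the fit without it was the same fit and is not counted. *Mef2c* and *Pou3f1* passed in *Fzd3* mutants in all 18, with log2 differences of 0.65 to 0.73 and 0.32 to 0.49. The count of the 9 genes called in *Fzd3* mutants ranged from 2 to 3 without 1 library. In *Celsr3* mutants it ranged from 0 to 1, with *Pou3f1* called without control library 2. Between the mutants it ranged from 2 to 5 without 1 library, and it was 5 with only the 6 libraries compared. In that fit of 6 libraries 2251 of 14666 genes were higher and 2065 lower in *Fzd3* than in *Celsr3* mutants. Over all genes, the calls between *Celsr3* mutants and controls numbered 24 with ordinary variances and 29 with the replicate block, against 45. Between the mutants they numbered 2101 with the block, against 4346. The block also takes out *Celsr3* mutant library 4, the only library with its number. Without that library and without a block, 1686 genes were higher and 1457 lower in *Fzd3* than in *Celsr3* mutants. In *Fzd3* mutants the block left 3629 of all genes against 4366, and 3 of the 9. Leaving out 1 library moved these counts between 2958 and 4312 in *Fzd3* mutants, 39 and 53 in *Celsr3* mutants and 2971 and 4471 between the mutants. After centring each genotype, libraries that share a number correlated on average at -0.141 between controls and *Fzd3* mutants (0.0696 for other pairs), at 0.0298 between controls and *Celsr3* mutants (-0.00855) and at 0.0559 between the mutants (-0.0159). The libraries share only a number, and with a block for it *Unc5d* did not pass between the mutants (limma adjusted P = 0.164, with 0.0234 to 0.164 over the alternatives). Signs turned only for differences not past the threshold. With 1 library left out, *Cux1* between the mutants ranged from -0.078 to 0.021, *Cux2* in *Celsr3* mutants from -0.012 to 0.082, *Pou3f2* in *Fzd3* mutants from -0.055 to 0.070, *Pou3f3* in *Fzd3* mutants from -0.090 to 0.061 and *Mef2c* in *Celsr3* mutants from -0.12 to 0.025. *Pou3f3* in *Fzd3* mutants was at 0.0072 with columns rescaled to equal sums, and *Mef2c* in *Celsr3* mutants at 0.013 with the block. The cause of these shifts was not tested. The lowest value of the 9 genes in any library was 30.7 CPM.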

Other observations

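The remaining lists hold markers of other tissue that a cortical dissection can include. Those of oligodendrocyte precursors and of Cajal-Retzius and subplate cells mark cells of the cortex itself. In *Celsr3* mutants against controls 0 genes of these lists passed the limma threshold. At an unadjusted P under 0.05 there were 2 thalamic, 1 hippocampal and 2 meningeal or fibroblast genes, and 0 in the other lists, against 800 of all 14670 genes. Values in parentheses are log2 differences of *Fzd3* mutants from controls, a comparison in which 15.0% of all genes rose and 14.8% fell. Of 10 striatal symbols looked for only 4 were in the table, and of these 1 rose, *Drd1a* (0.41), and 1 fell, *Ebf1* (-0.67). Of 6 thalamic genes 1 rose, *Prox1* (0.99), and 2 fell, *Lhx9* (-0.68) and *Tcf7l2* (-0.51). Of 5 hippocampal genes 1 rose, again *Prox1*, with *Lef1* at -0.42 and *Zbtb20* at -0.20 not past the threshold. Of 5 oligodendrocyte precursor genes 3 rose, *Olig1* (1.08), *Olig2* (0.98) and *Pdgfra* (0.73). Of 6 Cajal-Retzius and subplate genes 2 rose, *Nr4a2* (0.67) and *Ctgf* (0.85), with *Trp73* at 0.26. Of 7 red blood cell genes 1 fell, *Hbb-y* (-1.05), with *Hba-a2* at 0.21. None of the 6 meningeal and fibroblast genes passed with limma, and 2 had an unadjusted P under 0.05. The 3 with the smallest P were *Pdgfrb* at 0.23, *Col1a1* at 1.67 and *Dcn* at 1.08, 2 of the others were below 0, and the median was 0.19.

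*Celsr3* mutant library 4 held 196 CPM of the 6 meningeal and fibroblast genes together, where the other 8 libraries held 27.1 to 42.2 CPM.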
